A study of Mus musculus with 8 samples.

Results

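The VEGF family comprised 10 genes of the 23282 in the deposited count table: 5 ligands (Vegfa, Vegfb, Vegfc, Vegfd and Pgf), 3 receptor tyrosine kinases (Kdr, Flt1 and Flt4) and 2 neuropilin co-receptors (Nrp1 and Nrp2). They were chosen by family membership and found by Entrez identifier, and all 10 passed the filter on low counts. Heart RNA of FVB/N male mice aged 4 months had been sequenced in 4 wild-type and 4 AE3-null libraries. AE3 is the chloride/bicarbonate exchanger encoded by Slc4a3. How the gene was disrupted is not given in the sources used here. The design names 4 mice per genotype and the labels say nothing further on how libraries relate to animals, so the p-values rest on the spread among these libraries, which may be partly technical.

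Vascular endothelial growth factors are secreted dimers that bind receptor tyrosine kinases on endothelial cells and direct vessel growth, survival and permeability. In the heart, muscle cells are a main source of Vegfa and Vegfb, and the endothelium carries the receptors. Kdr is the main signalling receptor for Vegfa. Flt1 binds Vegfa tightly but signals weakly and also exists in a soluble form that traps ligand, and Flt4 is the receptor for Vegfc and Vegfd on lymphatic endothelium. Neuropilins bind both VEGF ligands and class 3 semaphorins and help present VEGF to the kinases.

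In AE3-null hearts 4 of the 10 genes were called lower and none higher: the ligand Vegfa, the receptors Kdr and Flt1, and the co-receptor Nrp2. The count was 2, Vegfa and Nrp2, when wild-type replicate 1 or AE3-null replicate 1, 2 or 4 was left out. Their falls were between 11.8% and 23.6%. A gene was called when its adjusted p in edgeR's quasi-likelihood test, fitted across all 14136 tested genes, was under 0.05. Of all tested genes 6.47% were called, 3.31% lower and 3.16% higher. The median log2 fold change of the 10 members was -0.22, against -0.0018 over all tested genes, and 9 of 10 members had a negative value. These members were listed with earlier results of these data known, so the counts describe the family and carry no test of their own. In RNA of a whole tissue, fewer cells of a type and less RNA per cell cannot be told apart.

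Library facts were as follows. Total counts ranged from 9133628 to 27078351 per library. Slc4a3 was at 378 to 389 CPM (read counts per 1000000 reads of the scaled library total) in wild-type libraries and 31.5 to 34.6 CPM in AE3-null libraries, so each library matched its label. On the second principal component wild-type replicate 3 was at -22.6 and the other libraries were between -1.48 and 8.89. The 7 heart muscle genes listed were Myl2, Myl3, Myh6, Tnni3, Tnnt2, Actc1 and Ryr2, none of them at 0. They summed to 79465 to 86296 CPM in wild-type and 79020 to 85692 CPM in AE3-null libraries. Myh6 was the largest part of this sum (mean 47853 CPM in wild-type). Tnnt2 was called higher (log2 0.12, edgeR adjusted p 0.0423), and the others were not called. Of the marker lists, 5 of 5 atrial muscle genes were higher in AE3-null hearts (summed 2825 to 3362 CPM in wild-type and 3771 to 4367 CPM in AE3-null). Red cell genes summed to 4057 to 6470 CPM in wild-type and 2816 to 3926 CPM in AE3-null libraries, with 0 of 5 called by edgeR and 4 of 5 at an unadjusted p under 0.05. Hba-a1 and Hba-a2 among them held identical values, so how reads of these copies were assigned is uncertain. The part of these differences in the VEGF results was not tested.

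The promoters of the 4 genes that fell are shown because these genes moved in the same direction. Each run holds 250 bases before to 50 bases after the transcription start, 5′ to 3′ on the gene's strand, from RefSeq on build GRCm38.p6, which is the C57BL/6J reference and neither the FVB/N genome nor the mm9 build of the alignments. Positions are chr17:46032328-46032627 on the minus strand for the first of the Vegfa starts, chr5:75978406-75978705 (minus) for Kdr, chr5:147725962-147726261 (minus) for Flt1 and chr1:62703067-62703366 (plus) for Nrp2. Capitals mark, on either strand, the core of the hypoxia-inducible factor site (ACGTG or GCGTG), the GC box bound by Sp1 (GGGCGG), the cAMP response element (TGACGTCA) and the TATA box (TATAAA). Neighbouring matches run together in capitals.
Vegfa: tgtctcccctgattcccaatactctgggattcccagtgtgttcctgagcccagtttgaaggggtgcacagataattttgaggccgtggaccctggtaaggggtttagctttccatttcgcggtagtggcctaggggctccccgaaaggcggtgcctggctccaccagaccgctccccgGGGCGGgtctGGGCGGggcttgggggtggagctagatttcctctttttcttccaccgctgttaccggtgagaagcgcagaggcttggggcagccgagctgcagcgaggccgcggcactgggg
Kdr: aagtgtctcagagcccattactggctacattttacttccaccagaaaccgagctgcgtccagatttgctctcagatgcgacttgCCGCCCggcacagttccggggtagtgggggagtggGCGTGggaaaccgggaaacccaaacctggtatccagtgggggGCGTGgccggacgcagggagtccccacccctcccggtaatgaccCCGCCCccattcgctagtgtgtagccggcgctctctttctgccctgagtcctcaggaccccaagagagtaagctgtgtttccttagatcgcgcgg
Flt1: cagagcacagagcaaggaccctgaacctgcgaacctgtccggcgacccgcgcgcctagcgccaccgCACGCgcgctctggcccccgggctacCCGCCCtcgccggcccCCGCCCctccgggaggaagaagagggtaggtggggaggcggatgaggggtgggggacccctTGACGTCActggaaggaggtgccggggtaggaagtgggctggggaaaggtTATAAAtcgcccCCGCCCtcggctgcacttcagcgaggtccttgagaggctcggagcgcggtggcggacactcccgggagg
Nrp2: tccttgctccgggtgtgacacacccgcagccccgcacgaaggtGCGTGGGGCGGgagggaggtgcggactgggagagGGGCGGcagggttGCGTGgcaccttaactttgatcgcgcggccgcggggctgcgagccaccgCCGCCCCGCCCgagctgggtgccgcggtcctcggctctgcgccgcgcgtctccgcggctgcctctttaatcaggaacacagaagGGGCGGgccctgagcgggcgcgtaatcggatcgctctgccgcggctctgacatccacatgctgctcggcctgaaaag

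All 4 windows held GC boxes, 2 in Vegfa, 2 in Kdr, 3 in Flt1 and 5 in Nrp2. A GC box was present in 35.7% of all 32851 promoter windows of this length. The hypoxia core matched at 2 places in Kdr, 1 in Flt1 and 2 in Nrp2, and it was present in 43.8% of all windows. It did not match in the first Vegfa window, while the window of a second Vegfa start held 2 matches. Flt1 alone of the 10 members held a cAMP response element (1.79% of all windows), and it also held a TATA box (13.6%), which among the other members only Vegfd had. A match describes these letters only. Over the family, 9 of 10 members had a GC box and 7 of 10 a hypoxia core in at least 1 of their 12 windows.

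Levels of different genes were compared as CPM per kilobase of the longest protein-coding GENCODE transcript. The most abundant member in wild-type hearts was the ligand Vegfb, at 193 ± 2.30 CPM per kb (SD, n = 4). Vegfa (98.2 ± 9.71) and Nrp1 (89.1 ± 7.47) came next, and their wild-type libraries overlapped. Below them came the kinases Kdr (56.3 ± 6.64) and Flt1 (23.2 ± 1.57), then Nrp2 (12.9 ± 0.921) and the lymphatic receptor Flt4 (6.01 ± 0.521). The lowest members were Pgf (4.09 ± 0.742), Vegfc (2.84 ± 0.184) and Vegfd (2.28 ± 0.487), of which the last pair overlapped. No other neighbours in this order overlapped between wild-type libraries. The order was the same when the joined length of all annotated exons was used. In AE3-null hearts Vegfa (77.7 ± 0.966) and Nrp1 (82.3 ± 5.09) changed places, and all others kept their rank. The AE3-null libraries of Vegfa and Nrp1 overlapped, with Nrp1 at 75.5 and Vegfa at 78.2 in replicate 1.

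**Figure D1:**
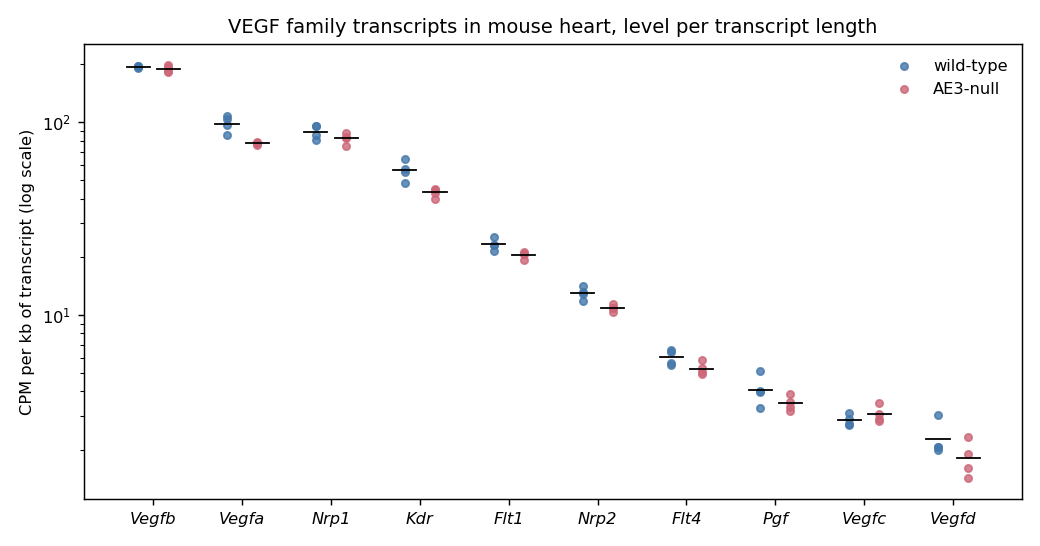
Level of each VEGF family transcript in CPM per kb of transcript on a log axis, with 1 point per library (4 wild-type in blue, 4 AE3-null in red) and a bar at each mean. The members span from 193 CPM per kb for Vegfb to 2.28 for Vegfd in wild-type hearts.

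Among the ligands, Vegfa was lower in AE3-null hearts. Its CPM in wild-type replicates 1 to 4 was 331, 371, 295 and 358, and in AE3-null replicates 1 to 4 it was 269.8, 271, 263 and 269. All 4 AE3-null libraries lay below all 4 wild-type libraries and close together, while the wild-type libraries were spread, with replicate 3 lowest. The mean fell from 339 ± 33.5 to 268 ± 3.33 CPM (SD, n = 4), a log2 fold change of -0.34 (SE 0.058, edgeR adjusted p 0.00478). Vegfa has several splice forms that differ in matrix binding, and counts per gene do not separate them. Its call held in all 16 alternative analyses, with adjusted p-values up to 0.0241.

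The other abundant ligand, Vegfb, which signals through Flt1 and is studied in the heart for its effects on coronary vessels and fatty acid uptake, did not differ detectably. It stood at 244, 250.2, 249 and 246 CPM in wild-type and 248, 233, 234 and 254 CPM in AE3-null replicates 1 to 4. The genotypes overlapped, and the log2 fold change was -0.03 with an approximate 95% interval of -0.10 to 0.04 (edgeR adjusted p 0.722). It was -0.01 without AE3-null replicate 2 or 3 and -0.05 without AE3-null replicate 4.

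Vegfc, Vegfd and Pgf were expressed at low levels and were not called. Vegfc, a lymphatic growth factor, was at 6.67, 6.54, 7.08 and 7.54 CPM in wild-type and 7.03, 8.51, 7.53 and 6.89 CPM in AE3-null libraries. Its log2 fold change of 0.08 was the only positive one of the family, with an interval of -0.12 to 0.27 (edgeR adjusted p 0.774). Leaving out AE3-null replicate 2 gave 0.03, leaving out wild-type replicate 2 gave 0.05, and leaving out replicate 4 of either genotype gave 0.12. Vegfd, the second ligand of Flt4, was at 4.08, 4.23, 6.17 and 4.23 CPM in wild-type and 3.29, 2.91, 3.89 and 4.75 CPM in AE3-null libraries. Wild-type replicate 3 was high and the genotypes overlapped. The log2 fold change of Vegfd was -0.28 (interval -0.61 to 0.05, edgeR adjusted p 0.369), -0.12 without wild-type replicate 3 and -0.44 without AE3-null replicate 4. Placental growth factor, Pgf, which binds Flt1 and not Kdr, was at 8.34, 10.6, 6.82 and 8.29 CPM in wild-type and 6.95, 8.08, 7.32 and 6.63 CPM in AE3-null libraries. Wild-type replicate 2 was highest, and replicate 3 lay among the AE3-null libraries. Its log2 fold change was -0.25 (SE 0.119, unadjusted p 0.0497, edgeR adjusted p 0.237), and it was -0.14 without wild-type replicate 2. These 3 ligands rested on 27 to 187 reads per library and had the 3 widest intervals of the family.

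**Figure D2:**
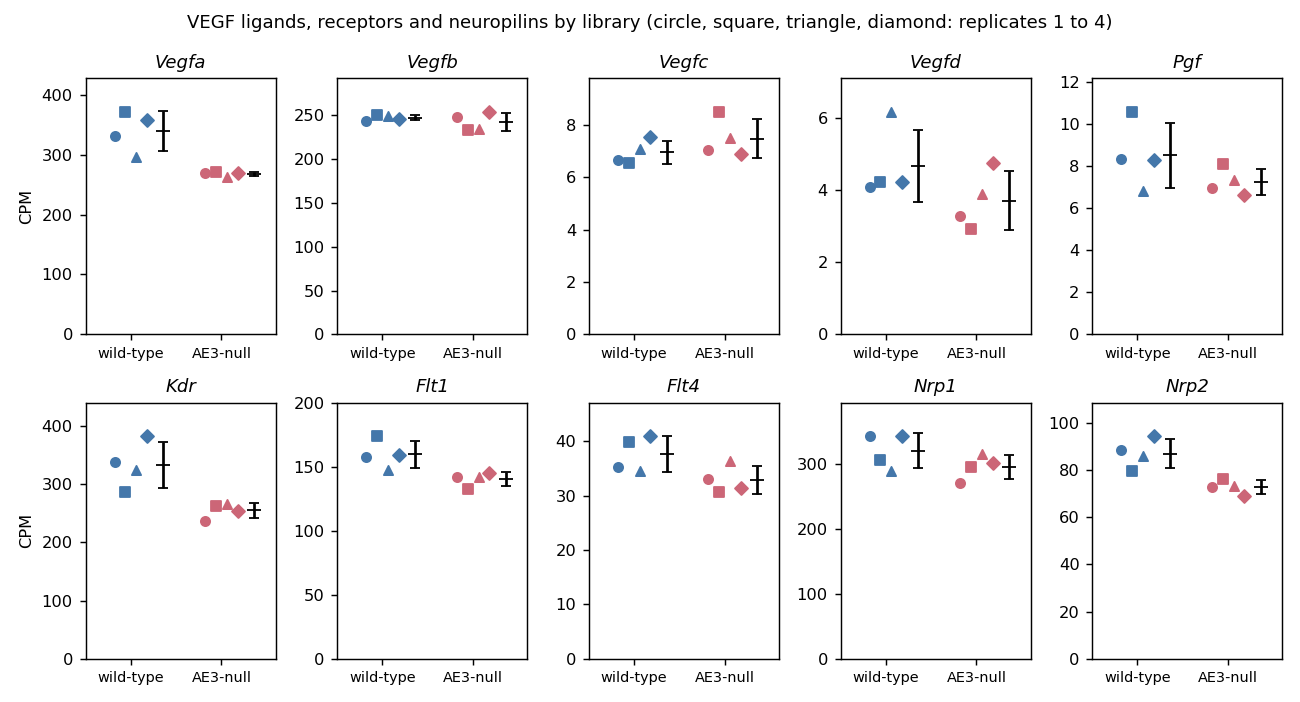
CPM of the 10 genes in each library, with symbols for replicates 1 to 4 and black bars for the mean and SD of each genotype (n = 4), each panel starting at 0. Vegfa, Kdr, Flt1 and Nrp2 have all AE3-null libraries below all wild-type libraries, and the other 6 panels overlap.

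Of the receptors, Kdr was lower in AE3-null hearts. It was at 339, 287, 325 and 383 CPM in wild-type and 237, 263, 267 and 254 CPM in AE3-null replicates 1 to 4. The genotypes did not overlap, and wild-type replicate 2 lay nearest to the AE3-null libraries. The mean went from 333 ± 39.4 to 255 ± 13.4 CPM (SD, n = 4, log2 -0.39, SE 0.081, edgeR adjusted p 0.0262). The call was lost when single libraries were left out: wild-type replicate 1 (adjusted p 0.0676), wild-type replicate 3 (0.0501), or AE3-null replicate 1 (0.0580), 2 (0.0541) or 4 (0.0847). It was also lost without the filter on low counts (0.0536). The log2 fold change stayed between -0.45 and -0.31 in all 16 alternatives.

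Flt1 fell by less. It was at 158, 174, 148 and 159 CPM in wild-type and 142, 133, 143 and 145 CPM in AE3-null replicates, and wild-type replicate 3 lay just above the highest AE3-null library. The mean went from 159.9 ± 10.8 to 141 ± 5.38 CPM (SD, n = 4, log2 -0.18, SE 0.047, edgeR adjusted p 0.0277). Counts per gene do not separate the soluble from the membrane form. Leaving out any library other than wild-type replicate 3 ended the call, with adjusted p-values of 0.0583, 0.0880 and 0.0786 without wild-type replicates 1, 2 and 4 and 0.0676, 0.0949, 0.0668 and 0.0558 without AE3-null replicates 1 to 4.

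Flt4 was not called. It stood at 35.2, 39.9, 34.4 and 40.9 CPM in wild-type and 33.1, 30.7, 36.4 and 31.4 CPM in AE3-null replicates, so AE3-null replicate 3 lay within the wild-type range. Flt4 had a log2 value of -0.19 (SE 0.068, edgeR adjusted p 0.111), which passed the threshold only without wild-type replicate 3 (log2 -0.23, adjusted p 0.0318). The summed lymphatic markers (Prox1, Lyve1, Pdpn, Ccl21a, Mmrn1 and Reln) were at 132 to 149 CPM in wild-type and 136 to 144 CPM in AE3-null libraries. Prox1 (mean 65.1 CPM in wild-type) and Lyve1 (39.5) were the largest parts of the sum. Whether RNA of these genes came from lymphatic vessels alone was not tested. EdgeR called 0 of 6, and 1 of 6, Lyve1 (log2 -0.23), had an unadjusted p under 0.05. Of the 6, 4 had positive values.

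The co-receptors differed in outcome. Nrp2 was at 88.3, 79.4, 85.8 and 94.4 CPM in wild-type and 72.8, 76.1, 73.3 and 69.1 CPM in AE3-null replicates, with no overlap. Its mean went from 87.0 ± 6.19 to 72.8 ± 2.86 CPM (SD, n = 4, log2 -0.26, SE 0.051, edgeR adjusted p 0.00614), and its call held in all 16 alternatives, with adjusted p-values up to 0.0337. Nrp1, the more abundant co-receptor per kilobase, was at 343, 307, 289.7 and 343 CPM in wild-type and 271, 296, 315 and 301 CPM in AE3-null replicates. Those ranges overlapped, and its log2 fold change of -0.12 had an interval of -0.23 to 0.0029 (edgeR adjusted p 0.303). It was -0.07 without AE3-null replicate 1.

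Nrp2 lies on chromosome 1, as does the targeted gene Slc4a3. By gene midpoints it is outside a window reaching 10 Mb to each side of Slc4a3 and inside one reaching 20 Mb to each side. Of 219 other tested genes in the wider window, 20 were called lower and 8 higher (12.8%, against 6.47% of all tested genes). In the narrower window 11 of 85 were lower and 2 higher. Whether position has a part in the Nrp2 value was not tested.

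In all, 4 of 10 members had genotypes that did not overlap in CPM, each lower in AE3-null hearts. Over all tested genes such separation was found for 12.2%, 6.15% lower and 6.1% higher. Wild-type libraries differed in which members were high. Kdr and Nrp2 were both lowest in wild-type replicate 2 and highest in replicate 4. Vegfa, Flt1 and Pgf were all highest in replicate 2 and lowest in replicate 3.

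**Figure D3:**
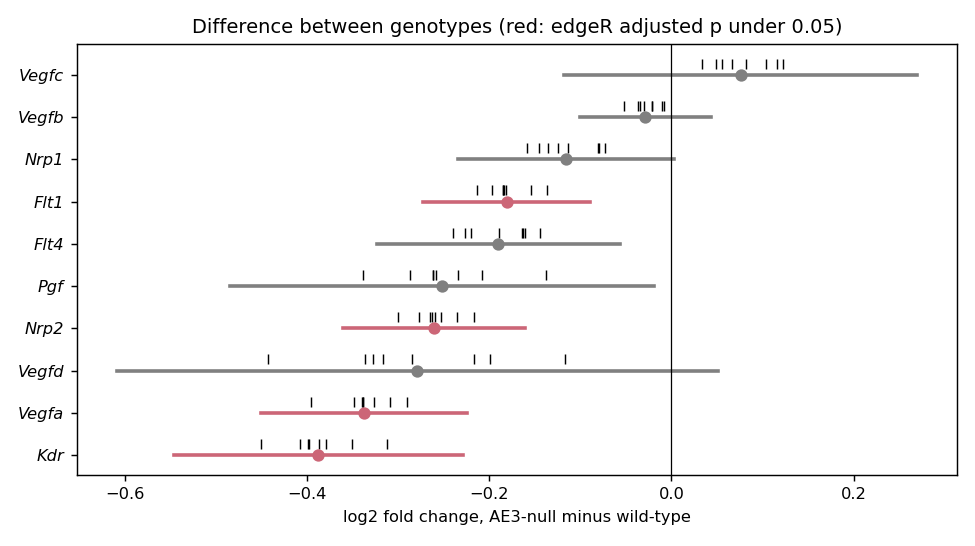
Log2 fold change (AE3-null minus wild-type) of each member, with its approximate 95% interval as a line and, above it, ticks for the value with each of the 8 libraries left out in turn. The called genes (red) run from -0.39 for Kdr to -0.18 for Flt1, and Vegfc at 0.08 is the only member on the positive side.

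The receptors are endothelial, so they were set beside 12 endothelial markers (Pecam1, Cdh5, Tek, Tie1, Esam, Eng, Egfl7, Robo4, Erg, Emcn, Cldn5 and Vwf). All 12 had negative log2 fold changes, from -0.49 to -0.07. Of the 12, 3 were called lower (25%, against 3.31% of all tested genes). Pecam1 fell from 228 ± 9.01 to 190.4 ± 9.87 CPM (SD, n = 4). Eng (log2 -0.24, edgeR adjusted p 0.0189) fell with overlapping genotypes, and Esam fell too (log2 -0.20, adjusted p 0.0150). These 3 calls were not followed through the 16 alternatives. The summed level of the 12 markers was 1508 to 1642 CPM in wild-type and 1379 to 1446 CPM in AE3-null libraries, with no overlap. Within each library, the count of Kdr relative to the summed markers was 0.209, 0.175, 0.215 and 0.233 in wild-type and 0.163, 0.182, 0.187 and 0.184 in AE3-null replicates 1 to 4. The genotypes overlapped through wild-type replicate 2. The mean log2 ratio was lower by a difference of -0.21 in AE3-null hearts (two-sided exact permutation p 0.114, adjusted over the 3 ratios tested 0.171).

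The other ratios compared the receptors and co-receptors with each other. The count ratio of Flt1 to Kdr was 0.467, 0.606, 0.455 and 0.416 in wild-type and 0.602, 0.506, 0.534 and 0.571 in AE3-null replicates, a log2 difference of 0.20 (exact permutation p 0.200, adjusted 0.200). For Nrp2 to Nrp1 it was 0.257, 0.259, 0.296 and 0.275 in wild-type and 0.268, 0.257, 0.232 and 0.229 in AE3-null replicates, a log2 difference of -0.14 (exact permutation p 0.114, adjusted 0.171). The smallest p that 70 splits of 8 libraries allow is 0.0286. After adjustment over 3 ratios, 1 ratio that separated alone would have stood at 0.0857, so these tests could not have called 1 ratio alone. Without wild-type replicate 2 the genotypes separated for the first of these ratios (0.31) and for Kdr to the markers (-0.29). Without AE3-null replicate 1 they separated for Nrp2 to Nrp1 (-0.18). Each had an exact permutation p of 0.0286, unadjusted and the smallest possible with 1 library left out. The library left out was in each case the one that made the genotypes overlap, so these separations carry no support of their own.

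**Figure D4:**
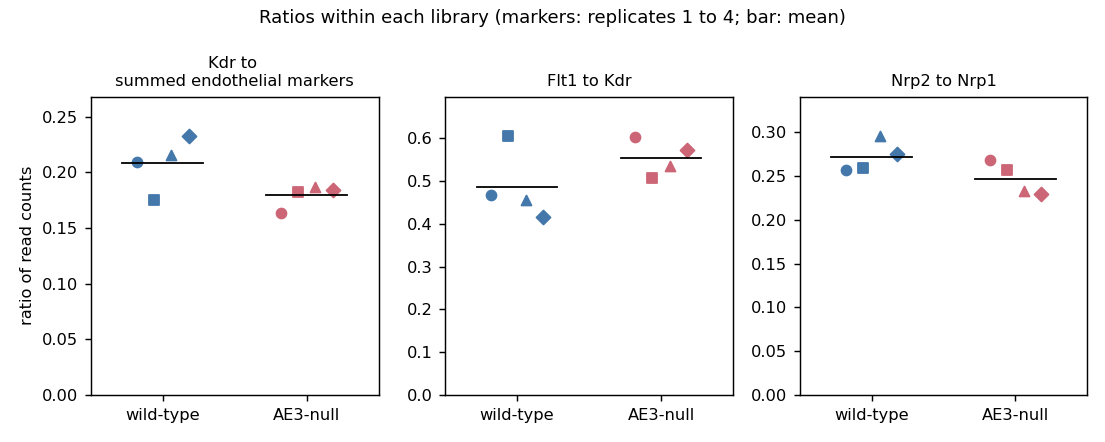
Ratio of read counts within each library for Kdr to the sum of 12 endothelial markers, Flt1 to Kdr and Nrp2 to Nrp1, with symbols for replicates 1 to 4, bars for means and axes from 0. In each panel at least 1 library lies within the range of the other genotype, such as wild-type replicate 2 at 0.175 for Kdr to the markers.

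The wider pathway was described by lists written with earlier results of these data known. In the list of partners that bind or move VEGF receptors, 1 of 14 tested genes fell, Efnb2 (log2 -0.28, SE 0.064, edgeR adjusted p 0.0150), the ephrin that drives internalization of VEGF receptors. Its call was lost without AE3-null replicate 3 (0.0562) or 4 (0.0673). Of 31 tested genes of signalling downstream of Kdr, 1 fell and 1 rose, and the list median was -0.03. Calls thus made up 6.45% of this list and 7.14% of the partners, near the 6.47% of all tested genes. The nitric oxide synthase of endothelium, Nos3, fell from 57.5 ± 3.28 to 49.8 ± 1.10 CPM (SD, n = 4, log2 -0.20), and the kinase Prkcb rose from 5.84 ± 0.667 to 8.32 ± 1.11 CPM (log2 0.54, edgeR adjusted p 0.00895), with overlapping genotypes. The call of Nos3 was lost without wild-type replicate 2 (0.0670) or any AE3-null library (0.0548 to 0.0622).

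Among 13 genes that VEGF induces in endothelium, 12 had negative values and the median was -0.20. All 12 general endothelial markers were negative too, with a median of -0.12. Calls made up 7.69% of the VEGF-induced list, near the 6.47% of all tested genes. Only Esm1, the secreted proteoglycan of sprouting endothelial tips, was called lower, with 2.45 to 3.65 CPM in wild-type and 1.62 to 2.37 CPM in AE3-null hearts (log2 -0.67, SE 0.180, edgeR adjusted p 0.0359). That call was lost by DESeq2 (0.0553) and without wild-type replicate 1 (0.117) or 4 (0.0918) or AE3-null replicate 1 (0.112) or 4 (0.137). For Dll4, the Notch ligand of tip cells, the log2 value was -0.31 (edgeR adjusted p 0.0790).

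In the list of class 3 semaphorins and plexins, which share the neuropilins with VEGF, 2 of 12 fell. Calls made up 16.7% of this list, against 6.47% of all tested genes. Sema3f, a ligand that binds Nrp2, fell from a mean of 31.8 ± 3.01 CPM to 21.9 ± 1.11 CPM (SD, n = 4). Its log2 value was -0.53 (SE 0.067, edgeR adjusted p 0.000213), called in all 16 alternatives. Its wild-type values spanned 29.0 to 35.7 CPM, and the AE3-null values spanned 20.5 to 23.2 CPM. Plxnd1, an endothelial semaphorin receptor, was called at log2 -0.15 (adjusted p 0.0482). Its call was lost in 9 of 16 alternatives, total-count scaling (0.0904) and DESeq2 size factors (0.0502) among them, and without any library but wild-type replicate 2 or AE3-null replicate 3 (up to 0.163). For the Nrp1 ligand Sema3a it was 0.12 (edgeR adjusted p 0.527).

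Of 6 genes that process Vegfc and Vegfd, 2 rose and 1 fell (50% called, against 6.47% of all tested genes), and the median was 0.14. Adamts3, the protease that activates Vegfc, rose from a mean of 9.86 ± 1.05 CPM to 13.8 ± 1.45 CPM (SD, n = 4). Its log2 value was 0.51 (SE 0.096, edgeR adjusted p 0.00437), and it was called in all 16 alternatives. Its cofactor Ccbe1 rose from 14.7 ± 0.574 to 17.6 ± 1.23 CPM (log2 0.26, adjusted p 0.0386), a call that was lost with DESeq2 (0.0575) and held only without wild-type replicate 3 or AE3-null replicate 3 among the analyses with 1 library left out (adjusted p up to 0.163 in the others). Cathepsin D, Ctsd, was called at log2 -0.12 (adjusted p 0.0366), and that call was lost in 10 of 16 alternatives, among them every omission of a library other than wild-type replicate 3 (up to 0.121).

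Regulators of Vegfa were mixed, with 2 of 17 lower, 1 higher and a median of -0.03. Of this list 17.6% were called, against 6.47% of all tested genes. Hif1a, the hypoxia-inducible factor subunit that activates Vegfa, rose from a mean of 66.3 ± 4.51 CPM to 80.7 ± 3.48 CPM (SD, n = 4), a log2 difference of 0.28 (SE 0.051, edgeR adjusted p 0.00369). Egln3, a prolyl hydroxylase that is itself a target of these factors, fell from 242 ± 11.6 to 126 ± 6.01 CPM (log2 -0.94, adjusted p 6.87e-10). Both held in all 16 alternatives. The transcription factor Stat3 was called at log2 -0.17 (adjusted p 0.0284), lost without wild-type replicates 1, 2 or 4 or AE3-null replicates 2, 3 or 4 (up to 0.115). The related factor Epas1 stood at log2 0.13 (edgeR adjusted p 0.0516). The coactivator Ppargc1a stood at -0.03 (adjusted p 0.919).

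Of 15 other growth factors and inhibitors of vessels, 1 rose and 1 fell, with a median of -0.14. Calls made up 13.3% of them, against 6.47% of all tested genes. Fgf1, a heparin-binding growth factor abundant in heart muscle, rose, with 17.4 to 22.2 CPM in wild-type and 25.5 to 28.6 CPM in AE3-null hearts (log2 0.51, SE 0.075, edgeR adjusted p 0.000729). Vash1, an inhibitor of vessel growth that endothelium makes in response to VEGF, fell from 44.2 ± 1.94 to 36.7 ± 2.18 CPM (log2 -0.26, adjusted p 0.00929). Both calls held in all 16 alternatives.

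**Figure D5:**
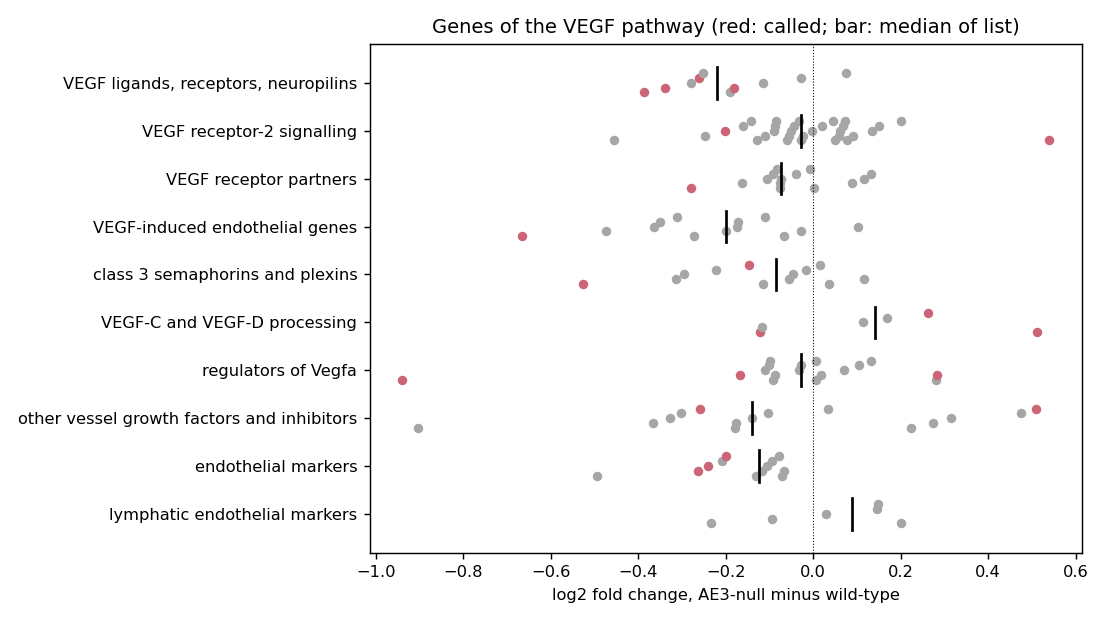
Log2 fold change of every tested gene in the VEGF family, the 7 pathway lists and the endothelial and lymphatic marker lists, with called genes in red and a bar at each list's median. The family median is -0.22 and that of Vegfc and Vegfd processing is 0.14, while Egln3 at -0.94 is the lowest point.

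The genes most like Vegfa and Kdr across the 8 libraries were picked by Pearson correlation of log2 CPM among the other tested genes, as a description. The genotype difference is shared by both genes of each pair, so the correlation of deviations from genotype means is given too. Closest to Vegfa were Cdv3 (r = 0.997, within genotype 0.985), the receptor gene Notch1 (0.995, within 0.994), the Rap1 exchange factor Rapgef1 (0.990, within 0.955), Calhm2 (0.986, within 0.936) and the muscle F-box gene Fbxo40 (0.984, within 0.936). Among those closest to Kdr were the exonuclease gene Eri1 (r = 0.988, within 0.955), Ldlrad3 (0.972, within 0.933), Dgkd (0.963, within 0.914) and the exchange factor Arhgef2 (0.961, within 0.951). No gene was in both sets. Each was chosen as an extreme among 14136 genes over 8 libraries.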

How the data were processed

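The authors deposited a table of raw read counts, with 1 row per Entrez gene and 1 column per library. The submitters' processing notes name bcl2fastq, CASAVA 1.8, TopHat, DESeq and the build mm9. Which counter, strand setting and annotation were used was not given in the sources used here, so reads of overlapping gene models (annotated for Vegfc, Kdr, Flt1, Nrp1 and Nrp2) cannot be assigned with certainty. Entrez numbers were matched to symbols in a RefSeq table of GRCm38.p6 for 23185 of 23282 rows. Genes were filtered with filterByExpr (minimum count 10), scaled by TMM and tested by genotype in edgeR (glmQLFit with robust moderation, glmQLFTest), with Benjamini-Hochberg adjustment over 14136 genes. Standard errors were derived from the F statistic. Ratios of counts were compared by two-sided exact permutation tests.

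The members and lists were chosen with earlier results of these data known. Named were all members, called genes of each pathway list (at most 4, or the 2 with the smallest p) and the 5 genes most correlated with Vegfa and with Kdr, of which 1 is not reported here. Dll4, Sema3a, Epas1, Ppargc1a and the marker genes in the closing observations were added after their values were seen. Libraries of 1 genotype differed by a chi-square of at least 2.51 per gene, so none was a copy. The fits were tested on simulated data. Versions were edgeR 4.0.16, DESeq2 1.42.0 and limma 3.58.1 under R 4.3.3.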

Additional observations from a re-analysis of the deposited data

Results flagged for a closer look

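Wild-type replicate 3 held 6.17 CPM of Vegfd, while the other 3 wild-type libraries lay between 4.08 and 4.23 CPM. The gap took 0.929 of the range of the group, past the 95% critical value of Dixon's test for 4 samples. Chance alone gives such a gap in about 1 of 20 groups, and 26 groups (10 genes and 3 ratios in each genotype) were examined. The same library was the one at -22.6 on the second principal component.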

How the results depend on the processing

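Every log2 fold change of a member kept its sign in all 16 alternatives. The number of members called, all of them lower, was 4 with DESeq2 size factors, total-count scaling, a stricter filter, DESeq2, limma voom or no robust moderation, and 3 without a filter. Leaving out single libraries gave 2 to 4 members, with 2 without wild-type replicate 1 or AE3-null replicates 1, 2 or 4. Over all genes these omissions gave 407 calls (without AE3-null replicate 4) to 1727 (without wild-type replicate 3), against 915, with 431 when wild-type replicate 4 was left out, and 581 and 569 when AE3-null replicates 1 and 3 were. With total-count scaling 528 genes were higher and 361 lower, against 447 and 468. Deviations of same-numbered libraries correlated at 0.162, -0.040, 0.015 and -0.0028. With 4 libraries per genotype these values cannot settle whether replicate numbers mark pairs. A fit with the replicate block called 1002 genes and 4 members, the calls of Ctsd (edgeR adjusted p 0.0668) and Ccbe1 (0.0597) were lost, and the paired sign-flip test of the ratios gave exact p-values of 0.250 for Kdr to markers (-0.21), 0.375 for Flt1 to Kdr (0.20) and 0.375 for Nrp2 to Nrp1 (-0.14). With 4 pairs that test cannot go below 0.125, so these p-values say nothing about stability. With 1 library left out, these log2 differences ranged from -0.29 to -0.15, 0.13 to 0.31 and -0.18 to -0.10. The first was -0.21 with the mean of the markers' log2 CPM. Vegfc, Vegfd and Pgf rested on 27 to 187 reads per library.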

Other observations

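Markers of single vessel beds were counted beside the general endothelial list. Calls made up 11.1% of the capillary and 40% of the arterial list, against 6.47% of all tested genes. Of 9 capillary genes 1 fell, the fatty acid transporter Cd36 (from 1991 ± 11.5 to 1813 ± 111 CPM, SD, n = 4, log2 -0.13, edgeR adjusted p 0.0469), and the list median was -0.13. The call of Cd36 was not followed through the 16 alternatives, and which cells its RNA came from was not tested. Of 5 arterial genes Efnb2 fell (log2 -0.28) and Gja5, a gap junction gene also expressed in atrial muscle, rose (log2 0.58, edgeR adjusted p 8.32e-05). None of 3 tested venous genes was called by edgeR, and none had an unadjusted p under 0.05.

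Of 8 smooth muscle and pericyte genes 2 rose (25%, against 3.16% of all tested genes) and 6 were not called, with a median of 0.11. Those called were the smooth muscle myosin Myh11 (from 88.3 to 109.9 CPM, log2 0.32, edgeR adjusted p 0.00401) and Abcc9 (log2 0.16, adjusted p 0.0125), a potassium channel subunit of pericytes that is also expressed in heart muscle. The pericyte genes Rgs5 (log2 -0.05, edgeR adjusted p 0.606) and Kcnj8, the channel partner of Abcc9 (log2 -0.10, adjusted p 0.298), had negative values. The other 6 genes of the list had positive values. Among them were Pdgfrb (log2 0.07, edgeR adjusted p 0.608) and Cspg4 (log2 0.05, adjusted p 0.754), which were not called either. Of 8 fibroblast genes 2 fell (25%, against 3.31% of all tested genes), Pi16 and Dpt, with a list median of 0.03.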
